A study of Mus musculus with 4 samples.

Results

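Fibroblasts and other stromal cells were a rare population of dissociated lung tumors from mice with a switchable Lkb1 allele. They were 119 of 19892 cells that passed quality filters and of 20351 cells in all. That is 0.598% of the filtered cells, with an exact binomial (Clopper-Pearson) 95% interval of 0.496% to 0.715%. The cells were chosen by their own transcripts. A cell was selected on at least 5 unique molecular identifiers (UMIs, each counted as 1 captured RNA molecule) summed over 5 genes of the extracellular matrix, Col1a1, Col1a2, Col3a1, Dcn and Bgn. It also had to hold no UMI of Cdh5 or Cldn5 (endothelial junctions), of Ptprc (the pan-leukocyte antigen CD45) or of Epcam or Cdh1 (epithelial adhesion). Cells with fewer than 200 detected genes or more than 13.4% mitochondrial UMIs had been left out.

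Fibroblasts build the collagen and elastic scaffold of the lung and supply growth factors to the alveolar epithelium. Pericytes, smooth muscle cells and myofibroblasts share the collagens with them and add the actin and myosin machinery of contraction. Alveolar fibroblasts lie in the gas-exchange walls, whereas adventitial fibroblasts sheathe larger vessels and airways.

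The transcriptomes of viable cells from microdissected lung tumors of 4 female mice were read cell by cell, after a sort that removed only dead cells. All carried the Cre-dependent reporter Rosa26LSL-tdTomato and 2 copies of Lkb1XTR, a trap allele that Cre switches off with a GFP tag and FLPo switches back on. Tumors were started in animals aged 6 to 12 weeks by lentiviral Cre given through the trachea and were taken after 16 weeks, at the end of 2 weeks of tamoxifen in 4 mg doses, and the 2 Restored mice carried FLPo-ERT2, whereas the 2 Non-Restored mice lacked it. The counts of the 4 mice form 1 matrix with no map from cells to mice, so Restored and Non-Restored stromal cells could not be compared, no p-value is given, and cell barcodes shared between libraries could not be counted. Cre reached the lung by the airway, and whether it recombined the alleles in any stromal cell is not known from the design.

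The stromal cells held 452379 UMIs, from 614 to 12389 a cell with a median of 3588, and a median of 1519 genes. They were compared with 1534 endothelial cells (median 1927 UMIs), 9971 immune cells (median 1811) and 764 epithelial cells (median 4656), each defined by the same barred genes, and with all 19773 other filtered cells. Levels are UMIs summed over the cells of a class and scaled to 1000000 (CPM). The method tags RNA 3′ ends, so levels were not divided by transcript length, and values are compared for 1 gene across cells. Every interval is an exact 95% interval for counting error and does not cover the spread between mice, and 3 UMIs set the limit where none was seen (6.63 CPM in stromal cells).

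Few cells lay near the selection's threshold. Among filtered cells without a barred UMI, 4155 had 0 matrix UMIs, 26 had 1, 5 had 2, 2 had 3 and 3 had 4, whereas 2 stromal cells sat at the minimum of 5 and 1 at 6. Of the 119 cells, 111 held 10 or more. The 3 cells at 5 or 6 UMIs had 5920 CPM of Mgp and 6447 CPM of Acta2, the smooth-muscle actin, and the 5 cells just outside, at 3 or 4 UMIs, had 8355 and 4043 CPM. Of the UMIs of Acta2 in the 3 cells inside, 44 came from 1 cell and 4 and 1 from the others. Mural UMIs were summed over Rgs5, Kcnj8, Abcc9, Notch3, Myh11, Acta2, Tagln, Cnn1, Des and Pdgfrb. Of the 5 cells outside, 1 held 5 or more mural UMIs, so each value rests on few cells. Raising the minimum to 10 UMIs lowered the summed contractile genes from 5358 to 4370 CPM. Another 35 cells reached 5 matrix UMIs but carried a barred one, 25 of them endothelial, 10 Ptprc and 8 epithelial, with more than 1 kind in 7 cells. These mixed cells had a median of 8860 UMIs, more than the 3588 of the stromal cells, and 7959 CPM of Mgp against 32309. Scrublet, a doublet caller, marked 0 of the 119 stromal and 1 of the 35 mixed cells, and whether the mixed cells were doublets was not tested.

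Of the markers that came with the label, only Mgp was not used by the selection. It was chosen with earlier results of these data known, so its level describes the cells and is not an independent check of the label. Mgp, the calcification inhibitor matrix Gla protein, reached 32309 CPM (31788 to 32837), was seen in 110 of the 119 cells and ranged from 0 to 884 UMIs a cell with a median of 44. It had 18.1 CPM in endothelial, 4.80 in immune and 0.705 in epithelial cells. Mgp alone took 3.23% of all stromal UMIs, against 1.55% for the 5 selecting genes together. After each cell was thinned to 1000 UMIs, which kept 113 of the 119 stromal cells, 90.3% of stromal cells held a Mgp UMI, against 1.07% of endothelial and 0.436% of immune cells.

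Markers of endothelial, epithelial and immune cells were low, as the bar on their defining genes favors. Counted without the barred genes, which also define the classes compared, 10 endothelial markers summed to 119 CPM in stromal against 6628 CPM in endothelial cells, and Pecam1, Esam and Emcn were at 0. In the same way 10 epithelial markers came to 92.8 against 90976 CPM in epithelial cells, and 12 immune markers to 747 against 25591 CPM in immune cells. The immune signal lay in few cells: the 5 cells with the most held 83.4% of it. Of the 244 UMIs of S100a8 and S100a9, neutrophil alarmins, 218 came from 1 cell. Sftpc, surfactant protein C of alveolar type II cells, was found at 1000 UMIs a cell in 4.42% of stromal, 8.47% of endothelial, 5.71% of immune and 59.7% of epithelial cells, so its stromal share was no higher than in other cells that should lack it. Red-cell globins gave 1 UMI. The 9 mesothelial markers were not low in the same way, with 97.3 CPM (70.7 to 131) from 44 UMIs in 23 cells, against 0 UMIs in endothelial and 3.29 CPM in epithelial cells. Of them Wt1, Gpm6a, Rspo1 and Upk1b were detected, and the defining Msln and Upk3b were at 0. In cell-cycle genes the stromal cells had 79.6 CPM, against 156 in endothelial and 191 in immune cells. The immediate-early genes, which rise during tissue dissociation, summed to 16354 CPM in stromal and 14988 in endothelial cells, and their part in the results was not tested.

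Matrix genes outside the selection were higher in stromal cells than in the other classes. The 42 listed genes summed to 50902 CPM (50247 to 51564), against 6090 in endothelial, 223 in immune and 986 in epithelial cells. Without Mgp the stromal sum was 18593 CPM. A gene was counted as higher or lower when its CPM, with 10 CPM added to both sides, differed at least 4-fold between stromal and endothelial cells, among 3835 genes at 50 CPM or more in either. By this measure 9.54% of all such genes were higher in stromal cells and 9.31% lower. Of 39 listed matrix genes at that level, 29 were higher and 0 lower, with a median log2 ratio of 3.98 against -0.17 over all genes tested. The selecting genes are themselves matrix genes, so these counts describe the cells and are not independent evidence of their direction. Counts on the other lists are likewise given as a description. A gene that reached 50 CPM in stromal cells alone could not be counted as lower.

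Elastic-fibre genes were prominent. Eln, which encodes elastin, had 2695 CPM (2545 to 2850) in 81 stromal cells, against 70.0 CPM in endothelial cells and 0 UMIs in epithelial cells. Mfap5, a microfibril protein, had 1068 against 3.73 CPM in endothelial cells, and Fbn1 (fibrillin) had 431 against 12.9 CPM. Ltbp2, a latent TGF-β binding protein of microfibrils, had 690 CPM with 0 UMIs in endothelial cells. The cross-linking enzyme Loxl1 was seen in 79 stromal cells at 387 CPM and likewise gave 0 endothelial UMIs. Fn1, fibronectin, reached 1768 CPM against 10.0, and the 3 chains of collagen VI (Col6a1, Col6a2 and Col6a3) had 363, 254 and 325 CPM against 0.574 or less.

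Not all matrix genes were higher in stromal cells. Col4a1, a collagen IV chain, had 619 CPM (549 to 696) in stromal against 1634 CPM in endothelial cells, a log2 ratio of -1.40 (-1.58 to -1.23). Col4a2 had 475 against 1164 CPM. Hspg2 (perlecan) had 99.5 against 88.4 CPM, with intervals of the log2 ratio from -0.31 to 0.62, whereas Sparc, a collagen-binding glycoprotein, was higher at 3829 against 2527 CPM.

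**Figure D1:**
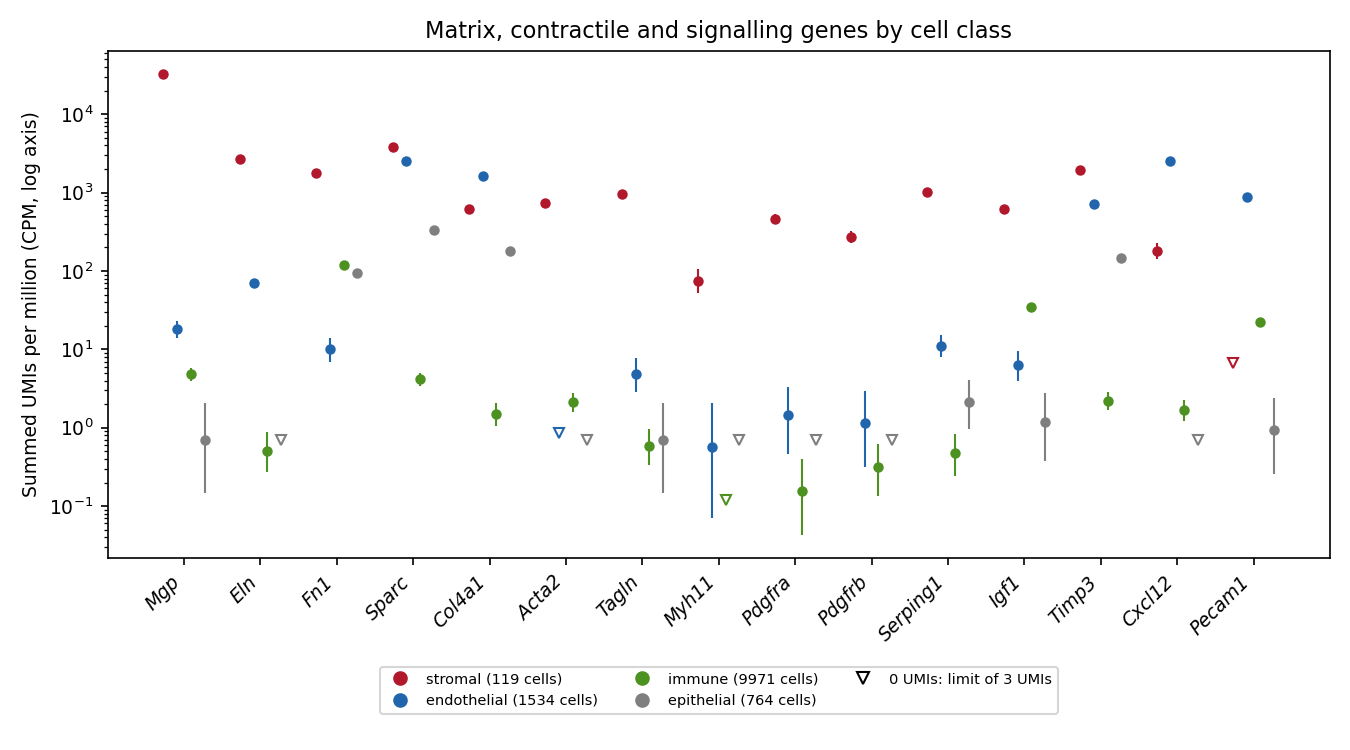
Summed UMIs in CPM (log axis) of 15 genes in the 119 stromal, 1534 endothelial, 764 epithelial and 9971 immune cells, with exact Poisson 95% intervals, and open triangles at the limit of 3 UMIs where a class had none. Mgp stood at 32309 CPM in stromal and 18.1 in endothelial cells, whereas Col4a1, Cxcl12 and Pecam1 were higher in endothelial cells.

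The source of each RNA across the whole tumor was also read. The 119 stromal cells held 79.0% of the 18508 Mgp UMIs of all filtered cells, the 35 mixed cells 18.1%, and all remaining cells 2.93%. Mfap5 (77.3% in stromal cells), Clec3b (76.6%), Rarres2 (73.5%), Tagln (68.1%) and Acta2 (65.8%) were similarly concentrated. Other genes that were high in stromal cells had most of their molecules in the far more numerous other cells. The stromal share was 10.4% for Sparc, 12.8% for Fn1, 15.3% for Igf1, 7.75% for the complement gene C3 and 2.59% for Apoe, the lipid carrier that macrophages also make.

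**Figure D2:**
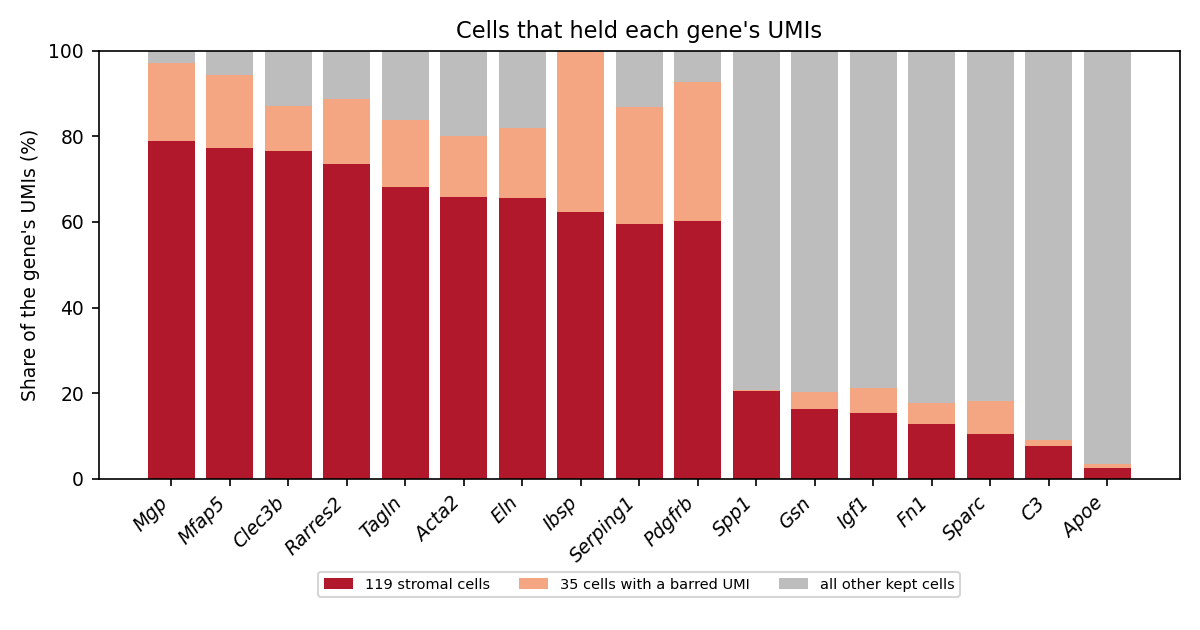
Share of each gene's UMIs among filtered cells (stacked bars from 0 to 100%) held by the 119 stromal cells, the 35 cells with matrix and barred UMIs, and all other cells. Mgp had 79.0% of its UMIs in stromal cells and Apoe 2.59%.

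Contractile genes were high in part of the cells. The 16 genes of the actin-myosin apparatus of smooth muscle summed to 5358 CPM (5147 to 5576), against 632 in endothelial, 391 in immune and 877 in epithelial cells. Of 11 tested against endothelial cells, 8 were at least 4-fold higher and 0 lower, beside 9.54% and 9.31% of all genes tested. Acta2 had 745 CPM (668 to 829), from 0 to 95 UMIs a cell, was present in 43 cells, and had 0 UMIs in endothelial and epithelial cells. The 5 cells with the most held 62.0% of Acta2 UMIs. At 1000 UMIs a cell, 25.7% (17.9% to 34.7%) of stromal cells held an Acta2 UMI, against 0.189% of immune cells, the class that should lack it. Tagln, the actin-binding transgelin, had 973 against 4.88 CPM in endothelial cells, and Myl9, a myosin light chain, 274 against 2.30 CPM. Cald1 (caldesmon) was the most widely detected of the 16, in 99 of the 119 cells at 1012 CPM against 198 in endothelial cells. The smooth-muscle myosin heavy chain Myh11 and the calponin Cnn1 were confined to few cells, 6 and 5, at 75.2 and 35.4 CPM. Smtn, smoothelin, had 26.5 against 28.7 CPM in endothelial cells. Among 13 of the 16 contractile genes with a promoter window in RefSeq, 1, Myl9, held a perfect CArG box, the site bound by serum response factor. Of all genes with a window, 1.81% held one. That motif was chosen after the values were seen. The Myl9 window, from 250 bases before to 50 after the annotated start, lies at chr2:156775214-156775513 on the + strand of GRCm38.p6. It is shown because it held the match, which begins 161 bases before the start and is in capitals. The Acta2 window had 0 matches and is not printed.

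Myl9: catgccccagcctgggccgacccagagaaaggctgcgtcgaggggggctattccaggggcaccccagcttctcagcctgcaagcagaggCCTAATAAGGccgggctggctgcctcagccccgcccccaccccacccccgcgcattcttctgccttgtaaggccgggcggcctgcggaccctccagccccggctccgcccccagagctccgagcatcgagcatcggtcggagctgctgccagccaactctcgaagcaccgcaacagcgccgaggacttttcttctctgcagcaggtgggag

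Pericyte markers were higher as well. Of 8 pericyte markers tested against endothelial cells, 7 were at least 4-fold higher and 1, Mcam, was lower. The 14-gene list summed to 1121 against 254 CPM. For this and the next lists, the shares over all genes tested were 9.54% higher and 9.31% lower. Pdgfrb, the receptor that draws pericytes to vessels, had 274 CPM in 59 cells against 1.15 CPM. Rgs5, a regulator of G-protein signaling typical of pericytes, was found in 9 cells, and 1 cell held 81.2% of its 64 UMIs. Rgs5 and Myh11 occurred together in 1 cell, with Rgs5 alone in 8 and Myh11 alone in 5. Higd1b, a further pericyte marker, was seen in 3 cells and Notch3, a receptor of mural cells, in 9. By a count of 5 or more mural UMIs, 43 of the 119 cells qualified, as did 2 cells with fewer than 5 matrix UMIs. That sum includes Acta2, Tagln and Pdgfrb, which are not limited to mural cells, so it does not number the mural cells. Of 6 myofibroblast markers tested, 5 were higher and 0 lower. Hhip, an inhibitor of hedgehog signaling, had 259 CPM in 30 stromal cells and 0 endothelial UMIs, Aspn (the proteoglycan asporin) 148 CPM and 0 UMIs, and Wnt5a, a secreted Wnt ligand, 133 against 13.5 CPM. On the fibroblast lists, 7 of 10 alveolar markers were higher and 1 lower, and 10 of 13 adventitial markers were higher and 1 lower.

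Among growth-factor receptors, Pdgfra, the receptor that marks alveolar and matrix-forming fibroblasts, had 466 CPM (406 to 534) in 64 cells against 1.44 CPM in endothelial cells. Pdgfra and Pdgfrb were detected together in 37 cells, Pdgfra alone in 27, Pdgfrb alone in 22 and neither in 33. Of 10 receptors tested, 4 were higher in stromal cells and 0 lower, beside 9.54% and 9.31% of all genes tested. Among the 4 were Fgfr1 at 208 against 10.6 CPM and the endothelin receptor Ednra at 128 against 1.15 CPM. Of 11 tested growth factors 7 were at least 4-fold higher and 1, Pdgfb, lower. Igf1, insulin-like growth factor 1, had 615 against 6.32 CPM, Gas6 (a ligand of the TAM receptors) 360 against 9.76, and the vessel-stabilizing ligand Angpt1 75.2 against 0.287, the last resting on 1 endothelial UMI. Fgf7, a growth factor for alveolar epithelium, was low at 33.2 CPM in 12 cells. Tgfb1 had 146 against 164 CPM, with intervals of the log2 ratio from -0.56 to 0.20, and Vegfa was lower at 66.3 against 167 CPM.

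Complement genes were higher across the list. All 6 listed genes that reached the 50 CPM level were at least 4-fold higher than in endothelial cells, with a median log2 ratio of 4.96. The 8-gene sum was 2891 against 28.4 CPM, so no gene of the list could pass that level through endothelial cells. The 6 genes passed through stromal cells alone and could not be lower, so their count and median partly follow from the filter. Among all genes tested against endothelial cells, 9.54% were higher and 9.31% lower. Serping1, the C1 inhibitor, had 1015 CPM (924 to 1112) in 105 of 119 cells against 11.2 CPM. C3, the central complement protein, had 493 against 0.861, C4b 276 against 3.73 and the protease C1s1 199 CPM against 0 UMIs. Immune cells held 235 CPM of the list, including 125 CPM of C4b. Among the 3704 genes tested against all other filtered cells, 11.5% were at least 4-fold higher in stromal cells and 10.3% lower, and 5 of 6 complement genes were higher there. By the same measure 38 of 39 matrix genes, 9 of 11 contractile genes and 7 of 7 pericyte markers were higher than in all other cells, with 0 lower on those lists. The 14 pericyte markers summed to 47.3 CPM in all other cells. The 7 tested thus passed the level through stromal cells alone and could not be lower.

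Of 13 tested proteases and inhibitors, 7 were at least 4-fold higher than in endothelial cells and 0 lower, beside 9.54% and 9.31% of all genes. The gelatinase Mmp2 had 272 against 1.72 CPM, the membrane protease Mmp14 219 against 28.1, and the protease inhibitor Serpine2 829 against 20.7. Timp3, an inhibitor that binds matrix, was abundant in both classes, 1970 against 723 CPM. Adamts1 was lower, 234 against 940 CPM. Mmp3 came from 7 cells and Mmp13 from 2.

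Among transcription factors and co-factors of lung mesenchyme, 4 of 10 tested were higher and 2 lower, beside 9.54% and 9.31% of all genes tested. Tbx4, a T-box factor of the lung mesenchyme, had 130 CPM in 40 cells against 0.861, Tcf21 84.0 against 0.574, and Prrx1 124 CPM against 0 UMIs. Foxf1, a factor of mesenchyme and of lung capillaries, had 57.5 against 261 CPM, and Mkl2, a co-factor of serum response factor, 22.1 against 170. Of the inflammatory genes 6 of 9 were higher and 1, Cxcl12, lower. Cxcl12, often cited as a fibroblast chemokine, stood at 181 against 2525 CPM in endothelial cells. Il6 had 122 against 15.5 CPM, Cxcl1 221 against 11.8 and Ptgs2 (cyclooxygenase-2) 241 against 29.6. Saa3 and Ccl7 came from 4 cells each, and Ccl2 from 9.

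Leaving out the selecting and barred genes and mitochondrial and ribosomal genes, the 12 genes with the highest ratio over endothelial cells were Mgp, Spp1, Ibsp, Gsn, Apoe, Cxcl14, Fn1, Mfap5, Acta2, Ltbp2, Tagln and Rarres2. Gsn, the actin-severing gelsolin, had 3267 CPM against 10.6. Rarres2, the precursor of chemerin, was in 94 cells at 774 against 2.01 CPM. Cxcl14, an orphan chemokine, was in 60 cells at 946 CPM against 0.287 CPM, the latter 1 UMI, with a log2 ratio of 11.69 (9.20 to 16.99). The lowest were Cd36, Gpihbp1, Ctla2a, Egfl7, Pecam1, Icam2, Cd93, Ptprb, Esam, Calcrl, Lrg1 and Emcn. Cd36, a fatty-acid transporter, and Gpihbp1, which anchors lipoprotein lipase to capillaries, had 0 stromal UMIs against 1697 and 1488 CPM. These low values depend on the bar: with the cells that hold a barred UMI kept, 9 of the 12 were under 4-fold lower, and the log2 ratio was -1.75 for Gpihbp1 and -1.84 for Pecam1. Against all other cells the highest ratios, with the same genes left out, also included Eln, Serping1, Ctgf (a matricellular growth factor, 710 against 3.40 CPM) and Clec3b, and the lowest were led by the type II cell gene Sftpc and the macrophage gene Chil3. The log2 ratio of Sftpc was -7.11, and -0.11 with those cells kept. Ctgf and Clec3b were in 70 and 45 stromal cells.

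The Cre reporter was low in stromal cells. TdTomato had 104 CPM (76.3 to 138) from 47 UMIs, against 147 in endothelial, 838 in immune and 4069 in epithelial cells. At 1000 UMIs a cell, 7.96% of stromal and 13.1% of endothelial cells held a UMI of it, against 66.2% of epithelial cells. GFP, the trap tag, had 0 UMIs, an upper limit of 6.63 CPM. The sum of TdTomato, GFP and Stk11 was 161 CPM in endothelial and 4113 CPM in epithelial cells. Most of each sum was TdTomato, which leaves little for GFP there. The 0 in stromal cells is therefore not read as a stromal trait. Stk11, the gene that encodes LKB1, had 5 UMIs in 5 cells, 11.1 CPM (3.59 to 25.8) against 14.1 CPM in endothelial cells, too few to resolve a difference.

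Clustered without the selecting genes, the 119 cells fell into 4 sub-clusters, of 41 cells (34.5%), 40 (33.6%), 24 (20.2%) and 14 (11.8%). Their genes were used to form them, so their values are given as a description with no test. Median UMIs were 3410, 3891, 3477 and 4042 a cell. Matched to marker lists, sub-cluster 1 was alveolar fibroblast-like, 3 contractile-like and 4 adventitial fibroblast-like, and 2 stayed unnamed. All 4 kept the selecting collagen: Col1a1 had 2373, 2327, 2451 and 2301 CPM. Dcn, the small proteoglycan decorin, differed more, with 1160, 2998, 6490 and 13317 CPM.

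**Figure D3:**
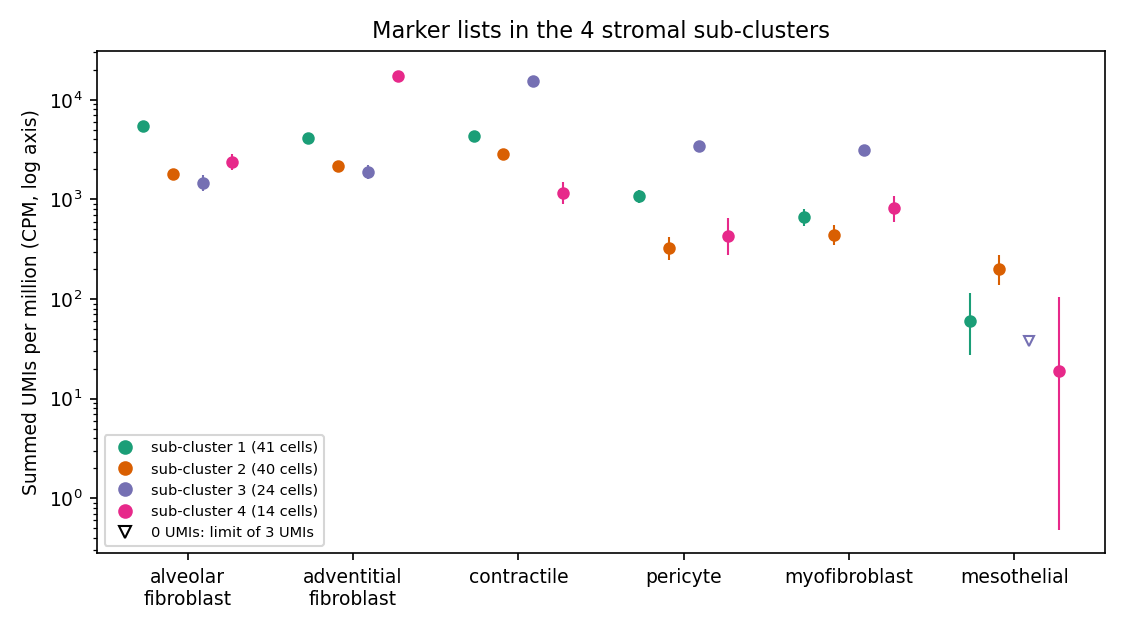
Summed UMIs in CPM (log axis) of 6 marker lists in the 4 sub-clusters, with exact Poisson 95% intervals and open triangles at the limit of 3 UMIs. The alveolar list was highest in sub-cluster 1 (5491 CPM), the contractile list in 3 (15583 CPM) and the adventitial list in 4 (17165 CPM).

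The alveolar fibroblast-like cells raised 10 of 15 alveolar markers at least 2-fold over the other stromal cells, and the list summed to 5491 against 1807 CPM. Inmt, a methyltransferase of lung fibroblasts, had 1026 CPM in 25 of the 41 cells. Limch1, a regulator of non-muscle myosin, had 697 CPM in 26 cells, Npnt, a ligand of the integrin chain Itga8, 355 CPM in 20, and Pdgfra 892 CPM in 32. These cells also had the highest Eln, 5002 CPM against 2070, 1206 and 434 in the others. Gyg, glycogenin, which primes glycogen synthesis, led the list with 543 CPM in 26 cells against 6.60 in the other stromal cells. Tcf21 was in 15 of these cells and in 4 of sub-cluster 4. Slc16a9, Macf1, Itga8, Phex and Ago1 completed the leading genes, in 21, 28, 9, 7 and 10 cells. The top 10 also held Cxcl9, but all 46 UMIs of it in this sub-cluster came from 1 cell.

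The adventitial fibroblast-like cells raised 14 of 15 adventitial markers, and the list summed to 17165 against 2832 CPM. Pi16, a peptidase inhibitor that marks adventitial fibroblasts, was in 13 of the 14 cells, 1547 against 10.0 CPM in the other stromal cells. Ly6a, the surface antigen Sca-1, was in 13, Clec3b, tetranectin, in 14 at 3150 CPM, and Gsn in all 14 at 19862 CPM. Complement was highest here, with 2226 CPM of Serping1 and 1754 of C3. The contractile list was lowest, 1169 CPM, and 1 of the 14 cells held Acta2. Scara5 and Tnxb (the matrix protein tenascin-X) were in 9 and 11 cells, and Ly6c1 and Pcdh19 in 5 and 4. In the same top 10, S100a8, S100a9, Gm5483 and Gm26870 came wholly or nearly from 1 cell each: 135 of 137 UMIs for S100a8 and all 82 for Gm26870.

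The unnamed sub-cluster 2 had the highest Mgp, 58045 CPM against 15649, 24066 and 8186. Its leading genes found in more than 3 cells were Spp1, Ptn, Ddah1, Grem1, Anxa8, Cd74, Trf and Trem2. Spp1, the secreted phosphoprotein osteopontin, had 11116 CPM in 23 of its 40 cells and 146 CPM in the other stromal cells. Its 26 positive stromal cells held from 3 to 675 UMIs, and 4 of them, with 675, 255, 241 and 225, carried most. Spp1 UMIs were also found in 7.89% of immune cells at 146 CPM, and the part of free RNA in stromal cells with few Spp1 UMIs was not tested. In the 23 cells with Spp1, Mgp was 75633 CPM, Col8a1 (a short-chain collagen) 510 and Grem1, an antagonist of bone morphogenetic proteins, 388 CPM. In the 17 cells without Spp1 they were 34585, 150 and 40.8 CPM, whereas Ptn (the growth factor pleiotrophin) was 429 and 544 CPM. Ptgs2 had 704 against 177 CPM and Cxcl14 2082 against 327. Wt1, a mesothelial transcription factor, was in 10 of the 40 cells and in no other stromal cell, Gpm6a was in 9 and Rspo1, a Wnt agonist, in 4. These were the 3 of 9 mesothelial markers raised, under the share needed for a name. Krt8, a keratin on the epithelial list, had 8 UMIs in 6 cells. Ddah1, Anxa8 and Trf (transferrin) were in 9, 12 and 24 of these cells. Trem2, a receptor of macrophages, was in 11 of the cells, 4 of them without Spp1. Cd74, the invariant chain of antigen presentation, had 134 UMIs here, 83 of them in 1 cell, and Cartpt (134 UMIs) and 55 of 57 Cxcl2 UMIs each came from 1 cell.

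**Figure D4:**
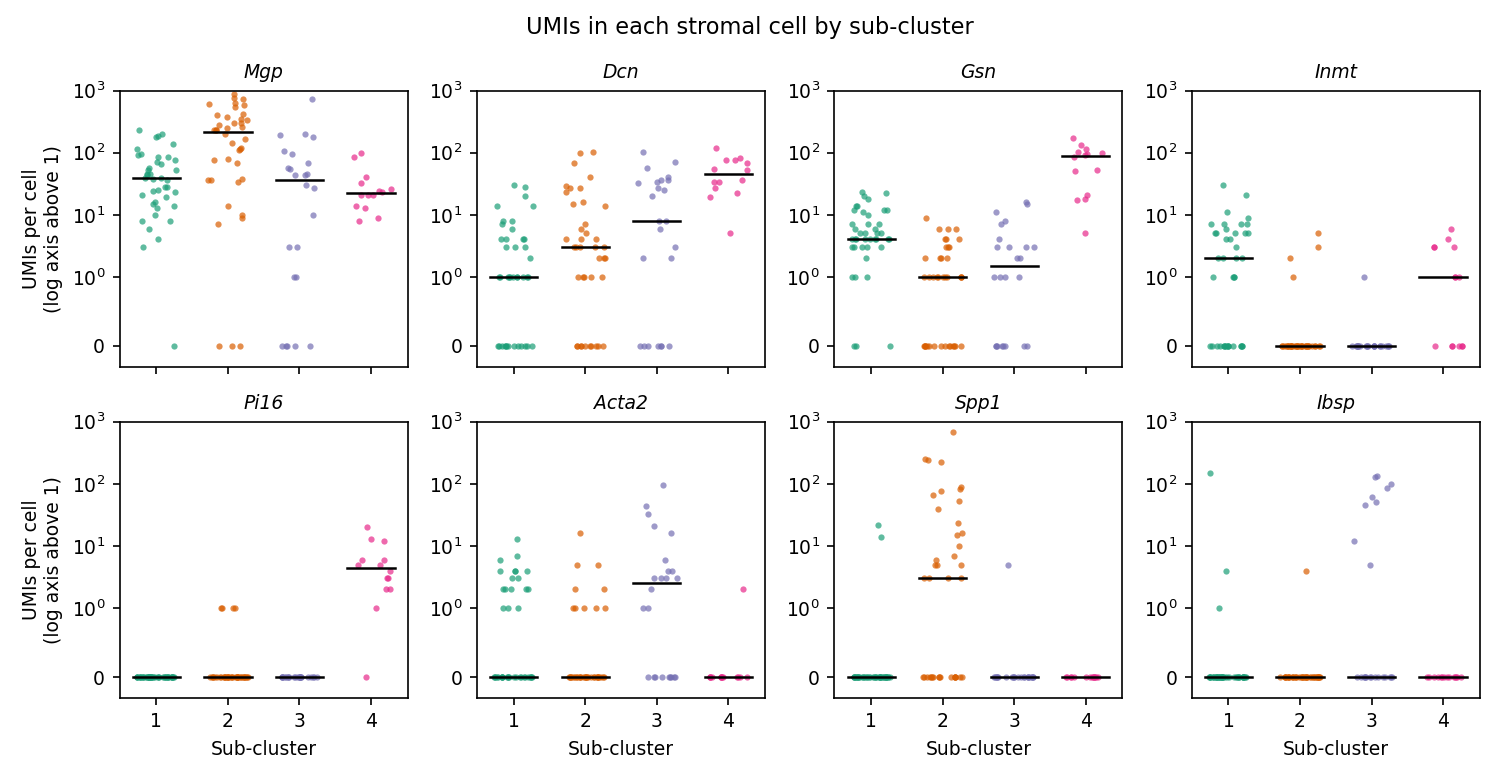
UMIs of 8 genes in each of the 119 stromal cells by sub-cluster (1 dot a cell, log axis above 1, horizontal lines at medians). Spp1 reached 675 UMIs in 1 cell of sub-cluster 2, Ibsp sat in 9 cells of sub-cluster 3, and Pi16 was present in 13 of the 14 cells of sub-cluster 4.

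The contractile-like sub-cluster raised 14 of 16 contractile markers, 12 of 14 pericyte and 9 of 11 myofibroblast markers. The contractile list summed to 15583 against 3204 CPM in the other stromal cells. Acta2 was 3035 CPM in 15 of the 24 cells, Tagln 4115 CPM in 17 and Lmod1, leiomodin, 229 CPM in 9 cells and in no other stromal cell. Igfbp2, Actg2 and Sncg, also among the leading genes, were in 7, 4 and 5 cells. Ibsp, bone sialoprotein, was present in 13 stromal cells, 9 of them here, with 152, 134, 130, 99, 85, 61, 51, 46, 12, 5, 4, 4 and 1 UMIs, and in 3 UMIs outside stromal and mixed cells. The 35 mixed cells held 470 Ibsp UMIs. Wif1, a secreted Wnt inhibitor, was found in 11 of the 13 Ibsp cells and in 4 other stromal cells, and S100b, a calcium-binding protein, in 10 of the 13.

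The Ibsp cells, 4 of them outside sub-cluster 3, were set beside the contractile-like cells that lacked Ibsp, a division chosen after the values were seen. The cells without Ibsp all belonged to the sub-cluster named for its contractile genes, so a higher contractile sum in them follows in part from that choice. The 13 Ibsp cells had 5742 CPM (5103 to 6439) of the contractile list, near the 5358 CPM of all stromal cells. The 15 sub-cluster 3 cells without Ibsp had 23195 CPM (21789 to 24668). They held 1014 of the 1227 contractile UMIs of sub-cluster 3, so its name rests mainly on them. Acta2 was 470 against 5101 CPM, with medians of 1 and 3 UMIs a cell and up to 95 in 1 cell without Ibsp. Lmod1 was at 0 UMIs in the Ibsp cells, whereas 9 of the 15 others held it. Rgs5 was at 0 in the Ibsp cells, and 52 of its 61 UMIs in the others came from 1 cell. In turn the Ibsp cells had 2215 against 252 CPM of Igf1, 2097 against 206 of Wif1 and 36158 against 6771 of Mgp. The contractile and pericyte sums of the cells without Ibsp were carried by few of them. Their median was 22 contractile UMIs a cell against 15 in the Ibsp cells, 1 cell held 271 of the 1014 UMIs, and 1 cell held 87 of the 234 pericyte UMIs. Igf1 was spread more evenly, in 12 of the 13 Ibsp cells with a median of 9 UMIs. Postn, a matricellular protein, was 725 against 435 CPM, with overlapping intervals. Sub-cluster 3 was sensitive to the settings: the cluster with the highest contractile level had from 10 to 66 of the cells. It shared at least 9 with sub-cluster 3 in every setting tried. With 20 dimensions it held 9 of the 24, and at resolution 1.0 or with the selecting genes kept 10. In those settings 13, 14 and 14 of the 24 sat in another cluster. The alveolar fibroblast-like cells were not always separate from sub-cluster 3. At resolution 0.3 all 41 and all 24 fell in 1 cluster of 66, and with the selecting genes kept 41 and 14 fell in 1 cluster of 55. With a minimum of 500 genes, 18 of 36 and all 24 shared a cluster of 53. A resolution of 1.0 gave a 10-cell cluster at 30017 CPM of contractile genes, all from sub-cluster 3.

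**Figure D5:**
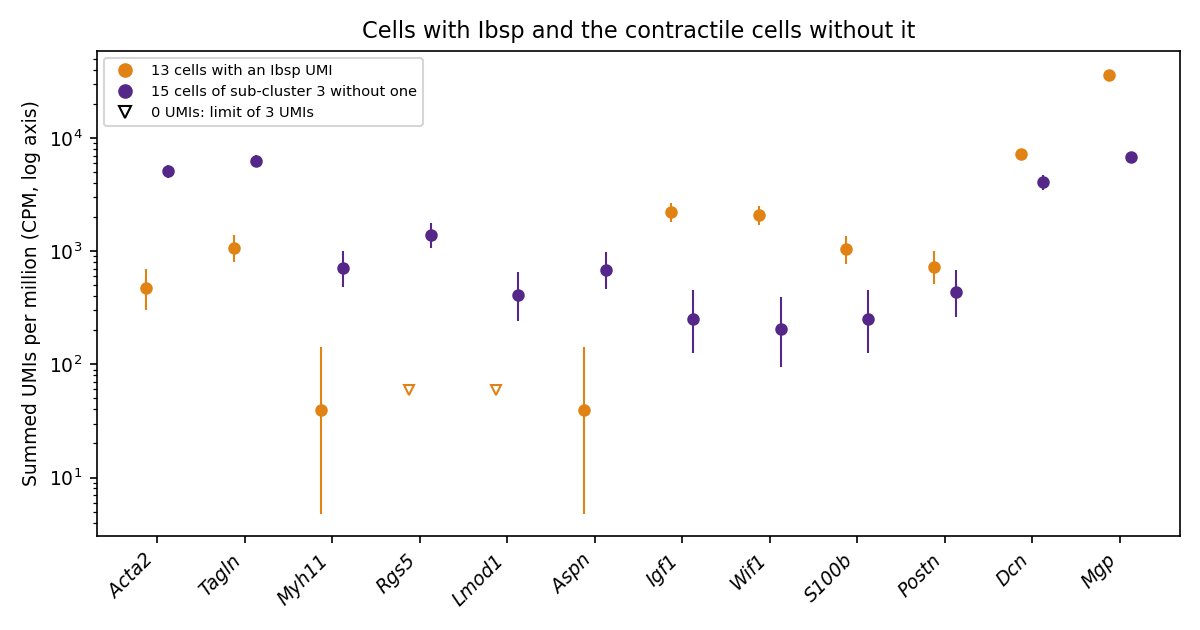
Summed UMIs in CPM (log axis) of 12 genes in the 13 stromal cells with an Ibsp UMI and the 15 cells of sub-cluster 3 without one, with exact Poisson 95% intervals and open triangles at the limit of 3 UMIs. Acta2 was 470 against 5101 CPM and Igf1 2215 against 252 CPM.

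Spp1 and Ibsp belong to the same gene family, the small integrin-binding glycoproteins of mineralized tissue, and lie 124 kb apart on the + strand of chromosome 5 (Ibsp at 104299171 to 104311469 and Spp1 at 104435118 to 104441050 in GENCODE vM21 on mm10). Among the 119 stromal cells 25 had Spp1 alone, 12 had Ibsp alone, 1 had both, with 5 Spp1 and 46 Ibsp UMIs, and 81 had neither, and with so few positive cells nothing is read from the single shared one. The windows around their annotated starts in RefSeq (GRCm38.p6) are shown because Spp1 and Ibsp were among the leading genes of sub-clusters 2 and 3. They were searched for the RUNX core, TGTGGT or its reverse complement ACCACA, a motif chosen after the values were seen that occurs in 16.8% of all promoter windows on either strand. RefSeq gives Spp1 a second start, whose window at chr5:104435942-104436241 had 0 matches and is not printed. The Spp1 window at chr5:104434861-104435160 had 1 match, in capitals, 128 bases before the start, and the Ibsp window at chr5:104299037-104299336 had none.

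Spp1: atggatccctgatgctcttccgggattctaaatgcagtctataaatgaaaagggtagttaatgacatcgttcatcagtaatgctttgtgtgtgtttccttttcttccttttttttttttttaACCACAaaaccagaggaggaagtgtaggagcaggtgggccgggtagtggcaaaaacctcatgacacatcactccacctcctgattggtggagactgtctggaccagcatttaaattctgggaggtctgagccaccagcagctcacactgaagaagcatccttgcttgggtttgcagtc
Ibsp: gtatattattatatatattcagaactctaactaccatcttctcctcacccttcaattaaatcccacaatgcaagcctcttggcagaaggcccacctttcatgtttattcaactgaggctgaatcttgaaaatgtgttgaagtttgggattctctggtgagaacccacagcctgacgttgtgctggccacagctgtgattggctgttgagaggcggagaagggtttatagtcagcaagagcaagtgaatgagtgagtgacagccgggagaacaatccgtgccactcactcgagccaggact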

How the data were processed

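Tumors of 2 Restored and 2 Non-Restored mice were profiled by droplet-based 3′ single-cell sequencing. The authors deposited raw UMI counts in 1 matrix. Its header names Cell Ranger 3.0.2, and the reference was mm10 with GFP and TdTomato added. The matrix held 20351 cells, 31055 features and 58624795 UMIs, carried no sample labels, and contained 0 columns of other samples. 52 cells had under 200 genes.

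The members, lists, motifs and sub-cluster scoring were chosen with earlier results of these data known. Cells with 200 genes or more and at most 13.4% mitochondrial UMIs (the 98th percentile) were kept. Endothelial and epithelial cells needed 2 UMIs, and immune cells 1, of their defining genes, no UMI of the other classes' defining genes and fewer than 5 matrix UMIs. UMIs were summed per class. Exact Poisson, Clopper-Pearson and conditional intervals (95%) cover counting error only, and amplified molecules within 1 pooled matrix are not replicates. With no map from cells to mice, no test was run. Thinning used 1000 UMIs a cell. Stromal cells were clustered on 996 variable genes and 10 dimensions (15 neighbors, Leiden resolution 0.5; scanpy 1.11.5). A sub-cluster took a name where at least 50% of a list's markers were raised 2-fold and detected in 10% of its cells, unless its top 10 genes held more markers of another class. Doublets were not removed. Scrublet called 181 of 20299 cells (0.892%). Ratio intervals were tested on simulated counts.

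Some items are not reported here. Genes named were list genes (22 lists, 285 genes, some on more than 1), the 12 most extreme ratios in each direction (selecting, barred, mitochondrial and ribosomal genes left out), the top 10 per sub-cluster with 10 UMIs or more, and the reporters and Stk11. Alternatives varied the cell filters, the matrix minimum, the barred genes, doublet removal, weighting, filters, pseudocount, thinning and clustering. Python 3.11.15, numpy 2.4.6, scipy 1.17.1 and pandas 2.3.3 were used.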

Additional observations from a re-analysis of the deposited data

How the results depend on the processing

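Of 68 values recomputed for the main results, 49 stayed within the main counting interval (or within 1.5-fold for counts of genes) and 19 moved. With cells holding a barred UMI kept, the stromal share became 0.774%, the contractile sum 3810 CPM, the matrix sum 35167 CPM, and the genes at least 4-fold apart from endothelial cells fell from 723 to 321. In the same setting the Sftpa1 ratio against all other cells reversed, to a log2 value of 0.050. A matrix minimum of 3 UMIs gave a contractile sum of 5676 CPM, and a minimum of 10 gave 4370 CPM and a matrix sum of 51980 CPM. Equal weight for each cell gave a matrix sum of 47664 CPM, and leaving out Mgp, an alternative added after the data were seen, 18593 CPM. A 200 CPM filter left 268 genes 4-fold apart from endothelial cells and 243 from all others (main 808), as fewer genes were tested. The share of cells with Acta2 was 14.3% at 500 UMIs a cell and 36.1% without thinning, which follow from depth. The share of the cluster with the highest contractile level, 20.2%, was 31.1% with 5 dimensions, 9.24% with 20, 55.5% at resolution 0.3, 8.40% at 1.0, 11.8% with the selecting genes kept and 46.9% with a minimum of 500 genes; the cause was not tested. Leaving out the 14 cells with S100a8 or S100a9, also added later, moved 0 of 4 results. Of 360 recomputed ratios of named genes, 347 stayed at least 4-fold apart in the same direction, and the other 13 all came from keeping cells with a barred UMI: 9 of the genes lowest against endothelial cells, and Sftpc, Sftpa1, Sftpb and Cxcl15 against all others. No paired analysis was possible because the matrix has no map from cells to mice, and no replicate could be left out. With 119 cells, genes below 6.63 CPM are not resolved.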

Other observations

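S100b, which also marks Schwann cells, was detected in 19 stromal cells with 75 UMIs, and 10 of those cells were in sub-cluster 3. Antigen-presenting genes summed to 590 CPM in stromal cells against 11247 CPM in immune cells, with 82.0% of the stromal UMIs in 5 cells. Actc1, cardiac actin, had 16 UMIs in sub-cluster 3, 15 of them in 1 cell.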
